A study of Mus musculus with 35 samples.

Results

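The core circadian clock genes of the mouse lung were described in 35 animals, 1 microarray per animal. The 10 genes were Per1, Per2, Per3, Cry1, Cry2, Arntl (now also named Bmal1), Clock, Nr1d1, Nr1d2 and Dbp, out of 19938 genes that the array measured through a probe set with exactly 1 gene symbol. They were chosen by name from the known clock circuit. That choice, and the choice of the further lists below, was made with earlier results of these data known. Each of the 10 was measured by 1 such probe set, and none was lost to a filter on low signal, since none was applied.

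All animals were adult male C57BL/6J mice of 20 to 25 g, an inbred strain. In high stretch hypercapnia (10 mice) and high stretch normocapnia (10 mice) the lungs were ventilated for 3 h with tidal volumes of 35 to 40 mL/kg up to a peak of 27 cmH2O, without positive end-expiratory pressure (0 cmH2O), at a rate of 30 to 35 per minute and with oxygen at a fraction of 0.75. In low stretch hypercapnia (5 mice) and low stretch normocapnia (5 mice) ventilation also lasted 3 h, with 10 mL/kg, PEEP (positive end-expiratory pressure) at 2 cmH2O and a rate of 135 per minute in room air. Both hypercapnia groups received an inspired carbon dioxide fraction of 0.12. The 5 non-ventilated mice breathed room air spontaneously. High and low stretch therefore differ in tidal volume, pressure, rate and oxygen together, and these cannot be told apart. Ventilated mice were anaesthetised and tracheostomised, and lungs were lavaged before removal, a step that takes out free airspace cells. The labels give neither the time of day at which a lung was taken nor an array batch. A difference between groups in time of day or batch can therefore not be told apart from a difference in treatment. Ventilation also came together with anaesthesia and tracheostomy, and these cannot be told apart in comparisons with non-ventilated lungs.

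The mammalian clock is a feedback loop of transcription. CLOCK and ARNTL (BMAL1) form an activator that binds E-box sequences and switches on the Per and Cry genes, whose proteins return to the nucleus and block that activator. The same activator drives Nr1d1 and Nr1d2, which encode the nuclear receptors REV-ERB alpha and beta, repressors of Arntl and Clock through ROR elements. It also drives Dbp, an output transcription factor that acts on D-box sequences. Arntl RNA therefore runs opposite to Per, Nr1d and Dbp RNA over the day in most tissues, lung included, and a lung sampled at 1 moment gives 1 point of that cycle.

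The binding sequences named above were looked for in the proximal promoters, because the clock's activators and repressors bind such sequences in promoters and enhancers. RefSeq promoter windows (build GRCm38.p6; 250 bases before and 50 after a start) were at hand for 9 of the 10 genes, in 13 windows. Capitals mark the matches in the sequences shown. Per1 and Cry1 are shown for the E-box CACGTG, read on both strands, which 7.15% of all 32851 windows held. Per3 is shown for a pair of D-boxes (TTATGTAA or TTACGTAA on either strand, held by 1.06% of windows), and Nr1d1 for the related E-box form CACGTT, on either strand (4.68% of windows). All 4 are the 250 bases upstream of a start of the gene, written in the direction of the gene. Where a gene had several windows, the first that held the match is shown.
Per1: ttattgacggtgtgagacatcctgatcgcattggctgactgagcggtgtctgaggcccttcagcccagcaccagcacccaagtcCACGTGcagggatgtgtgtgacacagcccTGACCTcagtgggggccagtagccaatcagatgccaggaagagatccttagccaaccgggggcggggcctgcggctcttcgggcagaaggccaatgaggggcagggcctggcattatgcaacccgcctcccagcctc
Cry1: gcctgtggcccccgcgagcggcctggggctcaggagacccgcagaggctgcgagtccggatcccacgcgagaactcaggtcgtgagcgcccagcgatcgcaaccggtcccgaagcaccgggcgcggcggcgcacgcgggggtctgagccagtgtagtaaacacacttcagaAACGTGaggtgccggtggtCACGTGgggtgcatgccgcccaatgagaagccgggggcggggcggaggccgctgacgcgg
Per3: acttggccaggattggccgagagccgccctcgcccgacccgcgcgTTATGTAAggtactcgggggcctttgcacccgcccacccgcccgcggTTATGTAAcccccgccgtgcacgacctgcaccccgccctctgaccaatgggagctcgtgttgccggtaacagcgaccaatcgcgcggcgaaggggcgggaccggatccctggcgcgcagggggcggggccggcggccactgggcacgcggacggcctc
Nr1d1: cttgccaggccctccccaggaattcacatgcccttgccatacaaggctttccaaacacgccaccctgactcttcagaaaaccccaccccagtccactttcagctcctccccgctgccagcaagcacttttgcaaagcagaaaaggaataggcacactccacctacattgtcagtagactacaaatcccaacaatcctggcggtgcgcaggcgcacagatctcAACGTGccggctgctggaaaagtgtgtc
These stretches lie at chr11:69098699-69098948 on the plus strand (Per1), chr10:85185055-85185304 on the minus strand (Cry1), chr4:151044666-151044915 on the minus strand (Per3) and chr11:98775378-98775627 on the minus strand (Nr1d1). The E-box began at position -166 in Per1 and at -60 in Cry1, counted from the start of that window. Cry1 also held CACGTT, read on the opposite strand, from -79. For Per1 that start lies inside the gene, which begins at base 69095108 of the chromosome, so it is not its outermost start. The D-boxes of Per3 began at -205 and -158, and Per3 was the 1 gene of the 9 with a D-box match. CACGTT lay from -28 in Nr1d1 and from -166 in Cry2. The second run of capitals in Per1, from -137, is the ROR element core AGGTCA on the opposite strand.

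The core AGGTCA, searched on both strands and held by 16.3% of all windows, was also present in single windows of Clock, Nr1d2 and Arntl. The site of Arntl, the gene on which REV-ERB repression is best known, lay 32 bases after a start inside the gene. With its flanks it lies at chr7:113207532-113207555 on the plus strand, and the gene begins at base 113178471.
Arntl: ggcagaaagtAGGTCAgggacgga
No window of the 9 genes held the cAMP response element TGACGTCA (1.79% of all windows). For Dbp none of these letters lay in its window. The matches are descriptions of these windows and were not tied to binding in these lungs.

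The arrays were alike in scale, with medians between 6.961 and 7.055 and standard deviations between 2.187 and 2.258 on the log2 scale, and pairs of arrays correlated at 0.961 to 0.993 over genes. Lung markers were among the brightest genes on every array: Sftpc, the surfactant protein C gene of alveolar type 2 cells, ranged from 13.94 to 14.10 log2 units, Scgb1a1 of club cells from 13.60 to 13.85, and Pecam1 of endothelium from 11.41 to 11.79. Markers of several cell types moved with ventilation, 12 higher and 28 lower of the 67 measured in 13 lists in high stretch hypercapnia, 11 and 31 in high stretch normocapnia, 8 and 20 in low stretch hypercapnia and 8 and 19 in low stretch normocapnia. Over all genes the calls were 16.3% higher and 17.6% lower, 17.4% and 18.9%, 7.99% and 7.02%, and 6.63% and 5.17% in the same order. All 8 neutrophil markers were higher and all 5 measured B cell markers were lower in each ventilated group than in non-ventilated lungs, and 6 or 7 of 8 endothelial markers were lower. Summed over the list, neutrophil signal was 12.99 to 14.56 in high stretch hypercapnia, 13.26 to 14.32 in high stretch normocapnia, 13.06 to 14.62 in low stretch hypercapnia and 13.36 to 14.17 in low stretch normocapnia, against 9.77 to 12.74 log2 units in non-ventilated lungs. Summed B cell signal was 9.27 to 9.88, 9.56 to 10.11, 8.80 to 9.42 and 9.01 to 9.71 in the same order of groups, against 10.46 to 11.14 in non-ventilated lungs, and endothelial signal was 14.02 to 14.14, 13.89 to 14.13, 13.88 to 14.27 and 14.04 to 14.20, against 14.40 to 14.51. Airway markers were lower too: 4 of 4 ciliated cell and 3 of 4 club cell markers in each high stretch group, 0 and 1 in low stretch hypercapnia and 1 and 2 in low stretch normocapnia. Summed ciliated cell signal was 10.04 to 10.48, 10.00 to 10.36, 10.31 to 10.62 and 10.17 to 10.54, against 10.45 to 10.66 in non-ventilated lungs, and club cell signal 14.71 to 14.86, 14.64 to 14.91, 14.77 to 14.89 and 14.78 to 14.88, against 14.87 to 14.93. In whole lung a change in the number of cells of a type and a change of RNA per cell cannot be told apart, and the part that these shifts in marker signal have in the differences from non-ventilated lungs below was not tested.

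**Figure D1:**
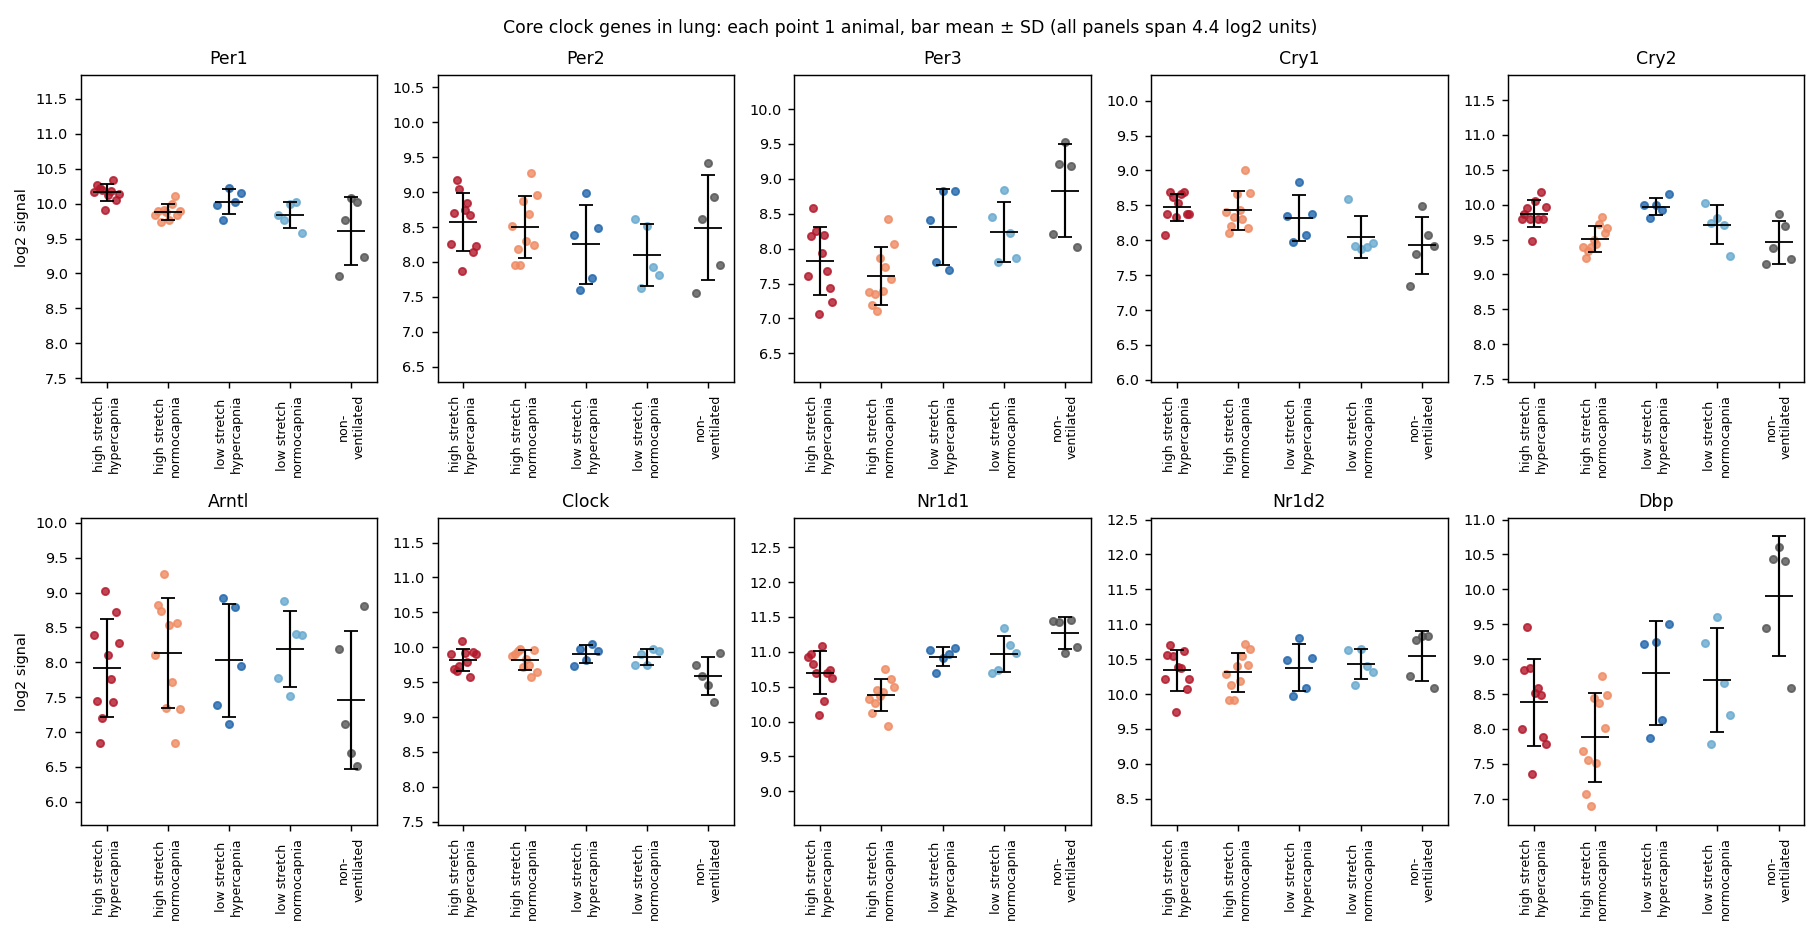
Log2 signal of the 10 clock genes (vertical axis) in each of 35 lungs (points) by group (horizontal axis), with group mean and SD (bars). All panels span the same number of log2 units. Nr1d1 and Dbp run downward in high stretch relative to non-ventilated lungs, while Arntl spreads widely inside every group.

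In high stretch hypercapnia 7 of the 10 clock genes differed from non-ventilated lungs, 4 higher and 3 lower, beside 33.8% of all genes (16.3% higher and 17.6% lower). In high stretch normocapnia 5 of the 10 differed, 2 higher and 3 lower, beside 36.3% of all genes (17.4% higher and 18.9% lower). The genes that fell were the same 3 in both comparisons: Dbp, Per3 and Nr1d1. Those comparisons share the 5 non-ventilated lungs, so they are not independent of each other. Changes below are log2 differences with their standard error from a limma model across all genes, and adjusted p-values are Benjamini-Hochberg values over all 19938 genes, with 0.05 as the threshold.

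Dbp, the output factor, had the largest change of the 10 in these 2 comparisons. Its log2 signal was 7.36 at the lowest, 8.50 at the median and 9.46 at the highest in high stretch hypercapnia, and 6.89, 7.86 and 8.76 in high stretch normocapnia, against 8.58, 9.45, 10.40, 10.44 and 10.61 in non-ventilated lungs. In high stretch hypercapnia 6 of 10 lungs lay below every non-ventilated lung, and in high stretch normocapnia 9 of 10 did. The change was -1.51 ± 0.36 in high stretch hypercapnia (SE, n = 10 and 5; 2.86-fold lower, limma adjusted p = 0.000939) and -2.02 ± 0.36 in high stretch normocapnia (4.05-fold lower, adjusted p = 2.26e-05).

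Per3, a period gene whose loss in mice alters the rhythm only mildly, followed the same order of groups. High stretch hypercapnia gave 7.06, 7.81 and 8.58 log2 units (lowest, median, highest) and high stretch normocapnia 7.10, 7.48 and 8.43, against 8.02, 8.21, 9.18, 9.21 and 9.53 in non-ventilated lungs. Below every non-ventilated lung lay 6 of 10 lungs of high stretch hypercapnia and 8 of 10 of high stretch normocapnia, so the groups overlapped. The change was -1.01 ± 0.26 in high stretch hypercapnia (2.02-fold lower, limma adjusted p = 0.00199) and -1.22 ± 0.26 in high stretch normocapnia (2.33-fold lower, adjusted p = 0.000231).

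Nr1d1, encoding the repressor REV-ERB alpha, fell in both high stretch groups. In high stretch normocapnia its values did not overlap with those of non-ventilated lungs. The share of all genes without overlap in that comparison was not counted, so whether this is unusual is not known. Its log2 signal was 10.09, 10.72 and 11.09 (lowest, median, highest) in high stretch hypercapnia and 9.94, 10.40 and 10.76 in high stretch normocapnia, against 10.98, 11.07, 11.43, 11.44 and 11.45 in non-ventilated lungs. Of the high stretch hypercapnia lungs 9 of 10 lay below the lowest non-ventilated lung, and of the high stretch normocapnia lungs 10 of 10 did. The changes were -0.58 ± 0.13 (1.49-fold lower, limma adjusted p = 0.00066) in high stretch hypercapnia and -0.90 ± 0.13 (1.86-fold lower, adjusted p = 1.2e-06) in high stretch normocapnia. In mammals Nr1d1 overlaps Thra on the opposite strand, and how the probes lie in that overlap was not examined. Its close relative Nr1d2, REV-ERB beta, differed by -0.21 ± 0.15 and -0.24 ± 0.15 in high stretch hypercapnia and normocapnia, neither past the threshold (adjusted p = 0.32 and 0.246).

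The cryptochromes carry most of the repression of CLOCK and ARNTL. Against non-ventilated lungs Cry1 rose in both high stretch groups, and of those groups Cry2 passed the threshold in high stretch hypercapnia. Cry1 measured 8.07, 8.46 and 8.69 in high stretch hypercapnia and 8.11, 8.37 and 9.00 in high stretch normocapnia (lowest, median, highest), against 7.35, 7.80, 7.92, 8.08 and 8.49 log2 units in non-ventilated lungs. The groups overlapped: 5 of 10 lungs of high stretch hypercapnia and 3 of 10 of high stretch normocapnia exceeded every non-ventilated lung. Cry1 rose by 0.54 ± 0.15 in high stretch hypercapnia (limma adjusted p = 0.00459) and by 0.50 ± 0.15 in high stretch normocapnia (adjusted p = 0.00802). The call in high stretch normocapnia was lost without non-ventilated replicate 1, where the change was 0.36 (adjusted p = 0.0689).

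Cry2 rose against non-ventilated lungs in both hypercapnia groups. Its log2 signal was 9.48, 9.83 and 10.18 (lowest, median, highest) in high stretch hypercapnia, and 9.81, 9.93, 9.99, 9.99 and 10.15 in low stretch hypercapnia, against 9.15, 9.22, 9.38, 9.69 and 9.87 in non-ventilated lungs. Above every non-ventilated lung lay 4 of 10 lungs of high stretch hypercapnia and 4 of 5 of low stretch hypercapnia. The changes were 0.40 ± 0.11 in high stretch hypercapnia (1.32-fold, limma adjusted p = 0.00511) and 0.51 ± 0.13 in low stretch hypercapnia (1.43-fold, adjusted p = 0.00575). In the normocapnia groups it was 0.05 ± 0.11 (high stretch, adjusted p = 0.798) and 0.25 ± 0.13 (low stretch, adjusted p = 0.266). The low stretch normocapnia difference was called, at 0.38 ± 0.11 (limma adjusted p = 0.0169), once each animal's Arntl level was a covariate, a fit described after the correlations. That covariate was chosen after the correlations were seen, and tracking it shrinks the errors by itself, so the call is no independent support.

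Per1, a period gene that also responds acutely to glucocorticoid and cAMP signals, had its highest mean in high stretch hypercapnia. It measured 9.91, 10.17 and 10.34 there (lowest, median, highest) and 9.76, 9.98, 10.03, 10.15 and 10.22 in low stretch hypercapnia, against 8.96, 9.24, 9.77, 10.02 and 10.08 log2 units in non-ventilated lungs. In high stretch hypercapnia 8 of 10 lungs exceeded all non-ventilated lungs, and the non-ventilated lungs were more scattered (SD 0.12 in high stretch hypercapnia and 0.49 in non-ventilated lungs). The rise was 0.55 ± 0.12 in high stretch hypercapnia (1.46-fold, limma adjusted p = 0.000311) and 0.41 ± 0.13 in low stretch hypercapnia (1.33-fold, adjusted p = 0.0319). The second of these was kept in only 4 of 10 fits that left out 1 lung, and was 0.25 (adjusted p = 0.179) without non-ventilated replicate 1. In high stretch normocapnia Per1 was 0.27 ± 0.12 higher (adjusted p = 0.0668), and it passed the threshold without non-ventilated replicate 3 (0.39, adjusted p = 0.00837) or 4 (0.37, adjusted p = 0.0125).

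Clock, which encodes a partner of ARNTL, rose by 0.23 ± 0.09 in both high stretch groups (limma adjusted p = 0.0378 with hypercapnia and 0.0376 with normocapnia). In low stretch hypercapnia it rose by 0.32 ± 0.10 (adjusted p = 0.0282). When single lungs were left out, these calls held in 7 of 15, 7 of 15 and 5 of 10 fits. Without non-ventilated replicate 4 the changes were 0.14 (adjusted p = 0.243), 0.14 (adjusted p = 0.239) and 0.23 (adjusted p = 0.119). Arntl and Per2 did not pass the threshold in any of the 10 pairs of groups, nor did Nr1d2. Arntl was 0.45 ± 0.39 and 0.66 ± 0.39 higher in high stretch hypercapnia and normocapnia than in non-ventilated lungs (adjusted p = 0.422 and 0.204), with 95% intervals of -0.35 to 1.25 and -0.14 to 1.47; the data bound its change only loosely.

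**Figure D2:**
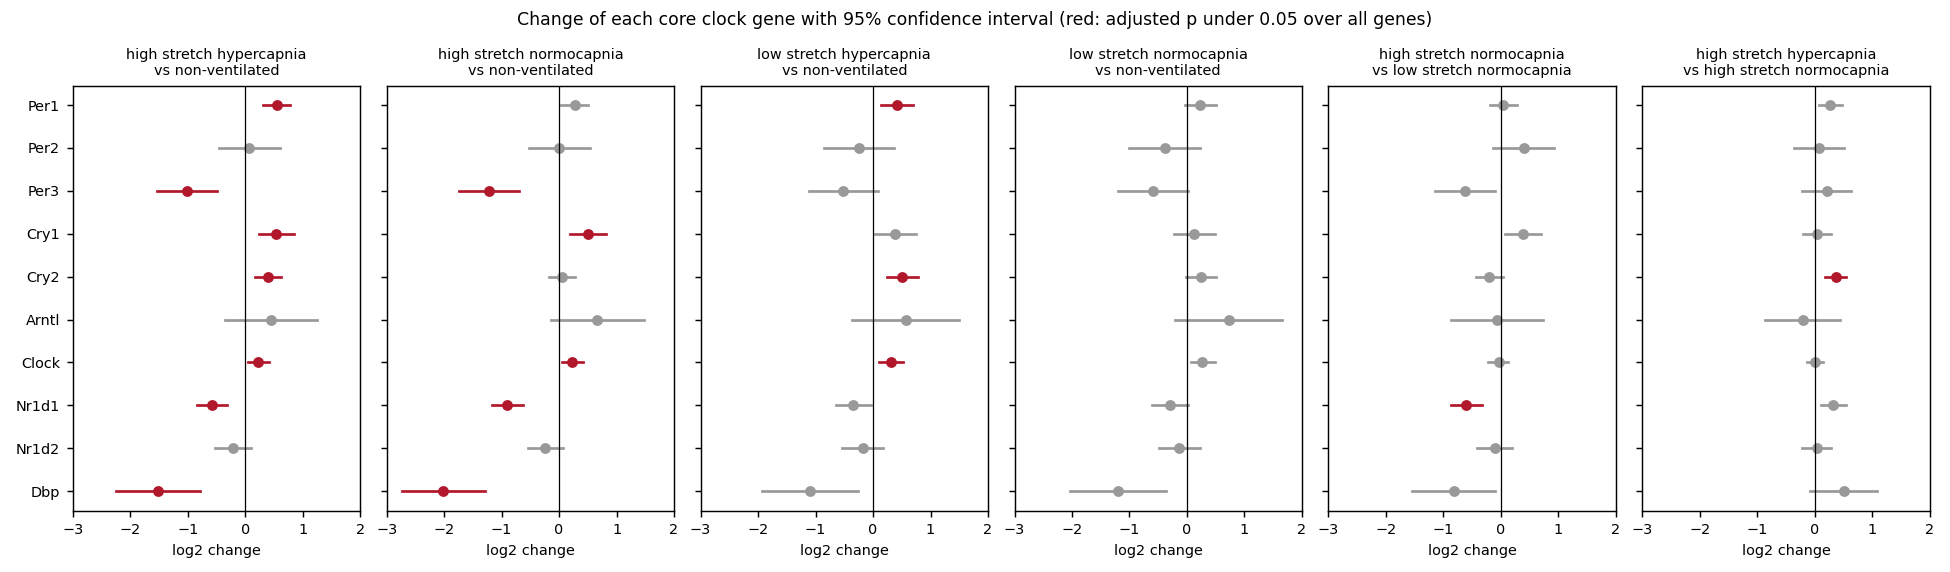
Log2 change (horizontal axis) of the 10 clock genes (vertical axis) in 6 comparisons, with 95% confidence intervals. Red marks an adjusted p under 0.05 over all genes; Dbp, Per3 and Nr1d1 lie left of 0 in both high stretch comparisons with non-ventilated lungs.

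In the low stretch groups fewer clock genes were called against non-ventilated lungs. In low stretch normocapnia 0 of the 10 passed the limma threshold against non-ventilated lungs, beside 11.8% of all genes, and 2 had an unadjusted p under 0.05. Low stretch hypercapnia gave 3 higher (Cry2, Per1 and Clock, above) and 0 lower, beside 15% of all genes (7.99% higher and 7.02% lower). Dbp gave 7.87, 8.13, 9.22, 9.25 and 9.50 log2 units in low stretch hypercapnia and 7.79, 8.20, 8.66, 9.23 and 9.61 in low stretch normocapnia. The means of these groups lay between the high stretch and non-ventilated means, but the values overlapped with both. No Dbp difference between a high and a low stretch group was called without a covariate. The changes of Dbp against non-ventilated lungs missed the threshold at -1.10 ± 0.41 with hypercapnia (adjusted p = 0.0683) and -1.20 ± 0.41 with normocapnia (adjusted p = 0.0525). With Arntl as a covariate, chosen after the correlations were seen, they were smaller and called, at -0.62 ± 0.16 (adjusted p = 0.00605) and -0.59 ± 0.16 (adjusted p = 0.0145). Most members track Arntl in these arrays, which by itself shrinks their standard errors, so these calls are no independent support. In the fit without the covariate, the changes of Dbp passed without non-ventilated replicate 5, at -1.43 (adjusted p = 0.0151) and -1.52 (adjusted p = 0.011). They also passed without low stretch hypercapnia replicate 5 (-1.28, adjusted p = 0.0412) or low stretch normocapnia replicate 3 (-1.42, adjusted p = 0.0235). Leaving out non-ventilated replicate 5 also brought Clock past it in low stretch normocapnia (0.36, adjusted p = 0.015), and leaving out replicate 3 did so for Cry1 in low stretch hypercapnia (0.53, adjusted p = 0.0351). Leaving out low stretch hypercapnia replicate 4 ended the calls of Per1 (0.41, adjusted p = 0.0532) and Clock (0.28, adjusted p = 0.0807) there and left 1 gene.

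High and low stretch ventilation, each with its own pressure, rate and oxygen, were compared at normal carbon dioxide as high against low stretch normocapnia, where 1 of the 10 genes was called, as lower, beside 18.3% of all genes (9.56% lower). That gene was Nr1d1. It measured 9.94 to 10.76 in high stretch normocapnia (median 10.40), against 10.70, 10.74, 10.99, 11.10 and 11.34 log2 units in low stretch normocapnia. Of the 10 high stretch lungs 9 lay below every low stretch lung. The change was -0.60 ± 0.13 (1.51-fold lower, limma adjusted p = 0.00119), and it held in every fit with a lung left out and under each other setting tried. Of the 67 cell type markers 6 were higher in this comparison, among them all 5 measured B cell markers (median change 0.49), and 9 were lower, among them 2 of 8 endothelial and 2 of 4 ciliated cell markers; their part in the Nr1d1 difference was not tested. Per3 (-0.62 ± 0.26, adjusted p = 0.0909), Cry1 (0.38 ± 0.15, adjusted p = 0.0794) and Dbp (-0.82 ± 0.36, adjusted p = 0.114) missed the threshold. Cry1 passed it without low stretch normocapnia replicate 1 (0.51, adjusted p = 0.0179) and Per3 without high stretch normocapnia replicate 8 (-0.72, adjusted p = 0.0448). Under hypercapnia 0 of the 10 genes were called by limma in high against low stretch, beside 10.1% of all genes, and 0 had an unadjusted p under 0.05. Nr1d1 differed there by -0.24 ± 0.13 (adjusted p = 0.283).

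The question of the series, whether hypercapnia alters the lung's response to injurious ventilation, is put by high stretch hypercapnia against high stretch normocapnia. Of the 10 genes 1 was called, as higher, beside 5.56% of all genes (2.49% higher). It was Cry2, at 9.48, 9.83 and 10.18 in high stretch hypercapnia, against 9.23, 9.47 and 9.82 log2 units in high stretch normocapnia (lowest, median, highest). The groups overlapped, with 5 of 10 hypercapnic lungs above every normocapnic one. The rise was 0.36 ± 0.09 (1.28-fold, 95% interval 0.17 to 0.54, limma adjusted p = 0.016) and was kept in all 20 fits that left out 1 lung. Per1 was 0.27 ± 0.09 higher, with 8 of 10 hypercapnic lungs above all normocapnic ones, and missed the threshold (adjusted p = 0.0848). Nr1d1 was 0.32 ± 0.11 higher (adjusted p = 0.0741), and passed it without high stretch normocapnia replicate 7 (0.36, adjusted p = 0.0443), high stretch hypercapnia replicate 5 (0.39, adjusted p = 0.0159) or replicate 7 (0.36, adjusted p = 0.0376). Dbp differed by 0.50 ± 0.29 (adjusted p = 0.399). Of the 67 cell type markers 1 passed the threshold in this comparison, Cckar of the club cell list, 0.53 ± 0.13 higher (adjusted p = 0.0121).

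Hypercapnia at low stretch gave 0 called clock genes by limma, beside 0.115% of all genes, and 1 unadjusted p under 0.05. Cry2 differed by 0.27 ± 0.13 there (95% interval 0.00 to 0.53, adjusted p = 0.542), a range that includes its size at high stretch. The interaction of carbon dioxide and stretch called 0 of the 10 genes, beside 0% of all genes; 0 clock genes and 893 of 19938 genes had an unadjusted p under 0.05 in the limma fit. For Cry2 the interaction was 0.09 ± 0.16 and for Nr1d1 0.36 ± 0.19 (adjusted p = 0.997 each). A difference between the effects of hypercapnia at high and at low stretch was therefore not detected for any clock gene.

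In order of mean level, neighbouring groups mostly did not differ past the threshold. Dbp, Per3, Nr1d1 and Nr1d2 were lowest in high stretch normocapnia, next in high stretch hypercapnia and highest in non-ventilated lungs. Per1, Cry1, Cry2, Arntl and Clock were lowest in non-ventilated lungs. Cry2 was highest in low stretch hypercapnia (9.97 ± 0.12, SD, n = 5), followed by high stretch hypercapnia (9.87 ± 0.19, n = 10), low stretch normocapnia (9.71 ± 0.28, n = 5), high stretch normocapnia (9.51 ± 0.19, n = 10) and non-ventilated lungs (9.46 ± 0.31, n = 5). Among the 4 neighbouring steps of each of the 10 genes, the 1 step past the limma threshold was Clock in high stretch normocapnia over non-ventilated lungs. The pairs crossing both factors add to this: high stretch normocapnia against low stretch hypercapnia called Nr1d1, Cry2 and Per3 as lower, beside 21.7% of all genes, and high stretch hypercapnia against low stretch normocapnia called 0 by limma, beside 14.1%, with 3 unadjusted p-values under 0.05. Over all 10 pairs of groups, Nr1d1 and Cry2 were called in 4 each, Per3 and Clock in 3, Per1, Cry1 and Dbp in 2. These pairs reuse the same groups and are not independent. The share of all genes called in as many pairs was not counted, so whether these counts are unusual is not known.

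Single animals of the same group differed more in most of the clock genes than in the typical gene. The spread between animals within groups (pooled SD, log2) was 0.769 for Arntl, which ranked 37 among 19938 genes, and 0.694 for Dbp, which ranked 53. Per2 (0.508, rank 142) and Per3 (0.498, rank 152) followed. The median over all genes was 0.149 and the 95th percentile 0.278. Nr1d2 (0.296) and Cry1 (0.291) lay just above that percentile, Nr1d1 (0.251), Per1 (0.221), Cry2 (0.215) and Clock (0.163) below it. In high stretch normocapnia Arntl ran from 6.85 to 9.27 log2 units between mice of 1 inbred strain under the same protocol, and in non-ventilated mice it was 6.52, 6.70, 7.11, 8.19 and 8.81.

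**Figure D3:**
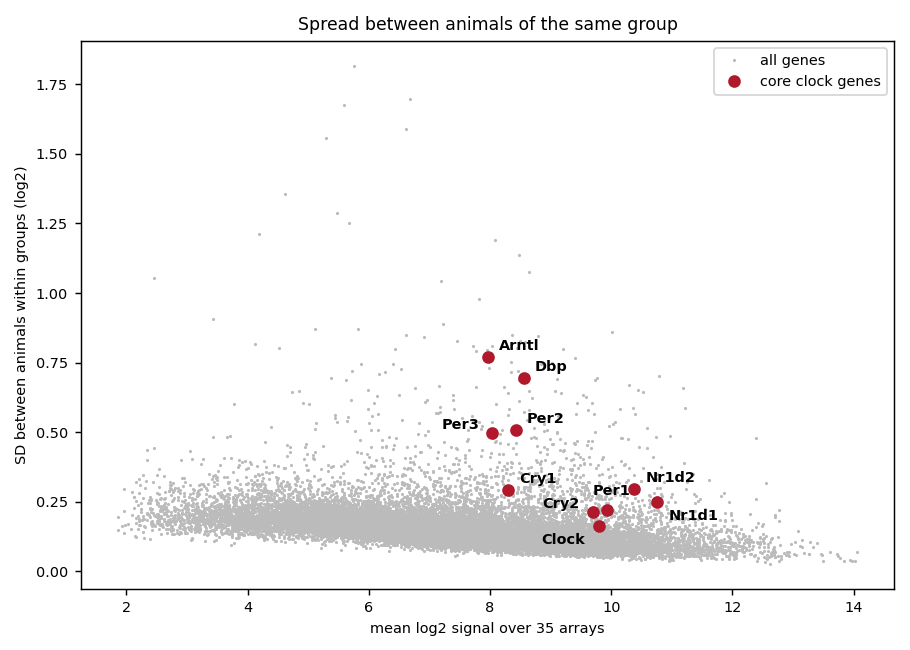
Pooled SD between animals within groups (vertical axis, log2) against mean log2 signal over 35 arrays (horizontal axis) for all 19938 genes (grey) and the 10 clock genes (red). Arntl, Dbp, Per2 and Per3 stand well above the cloud; Clock lies inside it.

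This spread was shared between the clock genes. Deviations of each animal from its group mean were correlated for the 45 pairs of genes over 35 animals, with permutation within groups and Benjamini-Hochberg adjustment over the 45 pairs. At an adjusted p under 0.05, 36 pairs passed, 22 positive and 14 negative, and 36 passed by Spearman's rho. Pairs of other genes were not tested, here or inside the high stretch groups below. The share of all gene pairs that would pass is therefore not known. Arntl and Clock ran together (r = 0.90, rho = 0.89, permutation p = 1e-05, adjusted p = 2.5e-05), and each ran against every Per and Cry gene, Nr1d2 and Dbp. Arntl against Dbp had r = -0.93 and rho = -0.89 (permutation p = 1e-05, adjusted p = 2.5e-05), and r = -0.91 without the 2 animals farthest from the median of the first gene. Arntl against Nr1d2 had r = -0.95 and against Per2 r = -0.93, with the same permutation p. A p of 1e-05 is the smallest that 100000 permutations can give.

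On the opposite side, Per3 and Dbp (r = 0.95), Nr1d2 and Dbp (r = 0.94) and Per2 and Per3 (r = 0.93) moved together, with a permutation p of 1e-05 each for r and for rho. The 14 negative pairs were those of Arntl or Clock with the 7 genes Per1, Per2, Per3, Cry1, Cry2, Nr1d2 and Dbp. The relation stood inside the 2 larger groups alone: Arntl against Dbp had r = -0.95 in high stretch hypercapnia (rho = -0.89, permutation p = 0.00012, adjusted p = 0.000844) and r = -0.94 in high stretch normocapnia (rho = -0.94, permutation p = 0.00016, adjusted p = 0.000765). Of the 45 pairs, 23 passed in high stretch hypercapnia and 28 in high stretch normocapnia by r, and 18 and 23 by Spearman's rho. The points of all pairs come from the same 35 arrays and their scaling, and centring each array on its median left the count at 36.

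Nr1d1 was the member whose pairs did not pass. The 9 pairs that did not pass were its pairs with the 9 other genes, with r between -0.31 (Cry1) and 0.34 (Nr1d2). Several of these moved when 2 animals were left out: without the 2 farthest from the median of the first gene, r moved to 0.36 with Per1 (0.12 with all 35), to 0.35 with Cry2 (0.18), to 0.22 with Per2 (0.08) and to -0.11 with Cry1 (-0.31), and the 9 values lay between -0.28 and 0.36. Inside high stretch normocapnia alone, r with Cry2 was 0.17 over 10 animals and 0.85 without 2 of them. Relations of Nr1d1 to the other members that need more animals to show are therefore not excluded. Against Arntl it had r = -0.18 and rho = -0.13 (permutation p = 0.32, adjusted p = 0.351), where Nr1d2 had -0.95. Nr1d1 was thus called in 4 of 10 pairs of groups, a count without a share of all genes beside it. No correlation of its deviations with another member passed the threshold. A difference between the correlations of Nr1d1 and Nr1d2 was not itself tested.

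**Figure D4:**
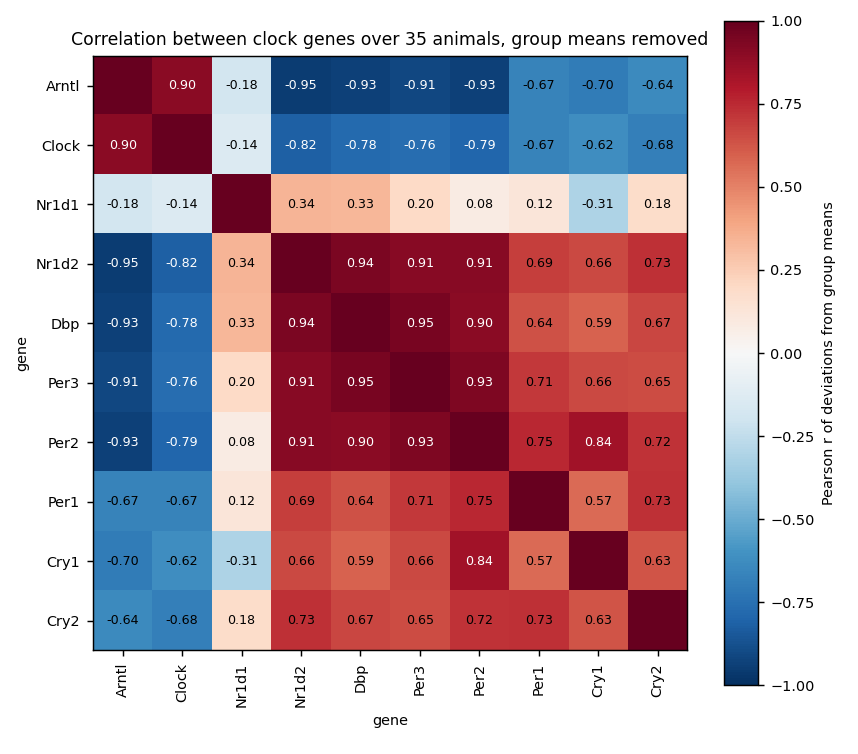
Pearson correlation of deviations from group means for each pair of the 10 clock genes (rows and columns) over 35 animals, group means removed. Arntl and Clock correlate at 0.90 and run against the Per, Cry, Nr1d2 and Dbp genes, while the row of Nr1d1 stays between -0.31 and 0.34.

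**Figure D5:**
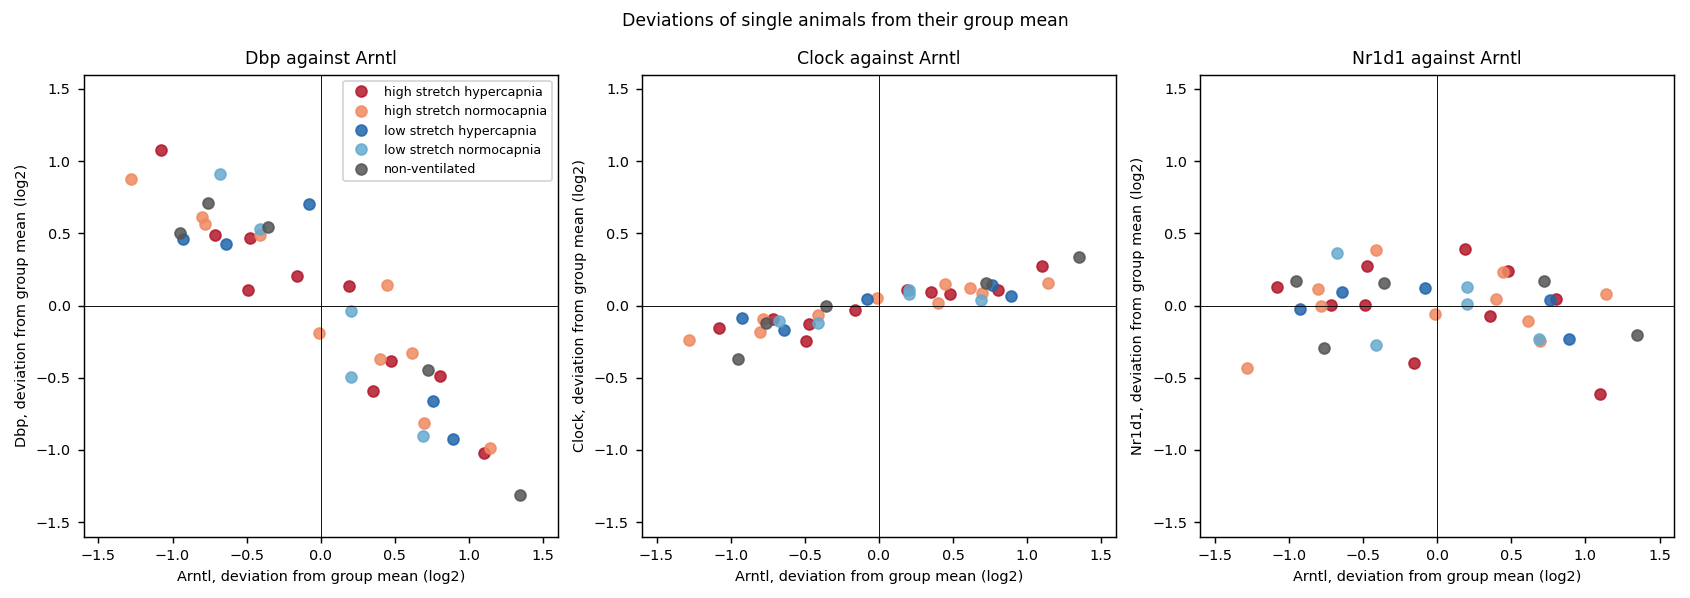
Deviation of each of 35 animals from its group mean (log2) for Dbp, Clock and Nr1d1 (vertical axes) against Arntl (horizontal axis), coloured by group. Dbp falls along 1 line in all groups (r = -0.93), Clock rises on a shallow one (r = 0.90), and Nr1d1 has r = -0.18.

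Because animals of a group sat at different Arntl levels, the group differences of the other 9 genes were also fitted with each animal's Arntl level as a covariate, a setting chosen after the correlations were seen. It compares lungs at an equal Arntl level, and assumes the same slope on Arntl in every group. Arntl is itself a clock gene measured after the treatment, so the fit can take out or add part of a group difference. It was picked because most members track it in these arrays, which by itself shrinks their standard errors. For Dbp in both high stretch groups the error was 0.36 without and 0.14 with the covariate. The shares of all genes beside the counts below are therefore not a like comparison for the members. The differences of Dbp, Per3 and Nr1d1 remained called. At equal Arntl, Dbp was -1.14 ± 0.14 in high stretch hypercapnia (limma adjusted p = 6.92e-08) and -1.46 ± 0.14 in high stretch normocapnia (adjusted p = 7.76e-10) relative to non-ventilated lungs. Per3 was -0.75 ± 0.11 (adjusted p = 3.49e-06) and -0.83 ± 0.12 (adjusted p = 7.71e-07), and Nr1d1 -0.55 ± 0.13 (adjusted p = 0.00135) and -0.86 ± 0.14 (adjusted p = 5.48e-06).

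At equal Arntl 8 of the 9 genes were called in high stretch hypercapnia and 6 of the 9 in high stretch normocapnia against non-ventilated lungs, beside 33.9% and 35.9% of all genes. Per2, which differed by 0.07 and 0.00 log2 units without the covariate, was 0.35 ± 0.10 and 0.41 ± 0.11 higher at equal Arntl in high stretch hypercapnia and normocapnia (limma adjusted p = 0.0085 and 0.00253). Clock was 0.15 ± 0.05 higher in high stretch hypercapnia (adjusted p = 0.0128) and 0.21 ± 0.05 in low stretch hypercapnia (adjusted p = 0.00546), both called, and 0.10 ± 0.05 in high stretch normocapnia, no longer called (adjusted p = 0.0903). Per1 was called in high stretch normocapnia as well, at 0.40 ± 0.09 (adjusted p = 0.000751).

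In the low stretch groups 5 of the 9 genes were called with hypercapnia and 3 of the 9 with normocapnia against non-ventilated lungs at equal Arntl, beside 15.7% and 11.6% of all genes. Dbp was lower in both, and Cry2 and Per1 were higher in both. Cry2 was 0.61 ± 0.11 higher in low stretch hypercapnia (limma adjusted p = 8.17e-05) and 0.38 ± 0.11 in low stretch normocapnia (adjusted p = 0.0169), and Per1 0.52 ± 0.10 (adjusted p = 0.000537) and 0.37 ± 0.11 (adjusted p = 0.0179). Cry1 was called with hypercapnia (0.55 ± 0.13, adjusted p = 0.00326). In high stretch normocapnia Cry2 stayed short of the threshold (0.17 ± 0.09, adjusted p = 0.175).

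Between high and low stretch normocapnia 5 of the 9 genes were called at equal Arntl, beside 18.6% of all genes: Per2 (0.36 ± 0.10) and Cry1 (0.36 ± 0.11) higher, and Dbp (-0.87 ± 0.14), Per3 (-0.66 ± 0.11) and Nr1d1 (-0.60 ± 0.13) lower. Between high and low stretch hypercapnia 2 were called, beside 10.6% of all genes, Per3 (-0.56 ± 0.11) and Dbp (-0.51 ± 0.14). Between high stretch hypercapnia and normocapnia Cry2 was again the 1 gene called (0.32 ± 0.07, adjusted p = 0.00676), beside 5.88% of all genes.

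The wider clock was read from a list of 20 accessory and output genes, of which 17 were measured. Higher and lower genes numbered 5 and 4 in high stretch hypercapnia, 4 and 4 in high stretch normocapnia, 3 and 2 in low stretch hypercapnia and 1 and 1 in low stretch normocapnia, each against non-ventilated lungs. That is 9, 8, 5 and 2 of 17, beside 33.8%, 36.3%, 15% and 11.8% of all genes, so in low stretch normocapnia the list was called no more often than all genes. The median change of the list was 0.06, 0.02, -0.09 and -0.05 log2 units, against -0.04, -0.03, 0.00 and -0.01 over all genes. Nfil3, a repressor that competes with DBP at D-boxes, rose in all 4 groups: by 1.82 ± 0.18 in high stretch hypercapnia (3.54-fold, limma adjusted p = 9.54e-10), 1.77 ± 0.18 in high stretch normocapnia, 1.25 ± 0.21 in low stretch hypercapnia and 1.06 ± 0.21 in low stretch normocapnia. In low stretch normocapnia the 1 lower gene was Btrc (-0.22 ± 0.07), whose product helps to break down PER proteins. Bhlhe40, a repressor of CLOCK and ARNTL activity also known as DEC1, rose by 0.80 ± 0.14 in high stretch hypercapnia and 0.92 ± 0.14 in high stretch normocapnia. Hlf and Tef, activators of the same family as DBP, fell in high stretch, Hlf by 0.94 ± 0.20 with hypercapnia and 0.93 ± 0.20 with normocapnia (adjusted p = 0.000282 and 0.000289), Tef by 0.55 ± 0.18 and 0.60 ± 0.18.

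High against low stretch normocapnia gave 5 higher and 1 lower of the 17, beside 8.72% higher and 9.56% lower of all genes. Bhlhe40 rose by 1.24 ± 0.14 (2.36-fold, limma adjusted p = 4.85e-08), and Nfil3 rose by 0.70 ± 0.18. Wee1, a cell cycle kinase gene under E-box control, rose by 0.56 ± 0.18, and Csnk1e, a kinase that marks PER proteins, by 0.34 ± 0.04. Under hypercapnia the same contrast of stretch gave 4 higher and 0 lower, beside 5.43% of all genes higher. For high stretch hypercapnia against high stretch normocapnia the 1 gene called was Csnk1e, higher by 0.17 ± 0.04 (1.13-fold, adjusted p = 0.0033), 1 of 17 beside 5.56% of all genes. Low stretch hypercapnia against low stretch normocapnia called 0 of the 17 by limma, beside 0.115% of all genes, with 2 unadjusted p-values under 0.05. The interaction called 0, beside 0% of all genes, with 0 unadjusted p-values under 0.05.

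Signals known to act on Per1 were read from a pair of further lists. Of 13 measured glucocorticoid receptor targets, 11, 11, 12 and 12 were higher and 0 lower in high stretch hypercapnia, high stretch normocapnia, low stretch hypercapnia and low stretch normocapnia against non-ventilated lungs, where 16.3%, 17.4%, 7.99% and 6.63% of all genes were higher. Fkbp5, a chaperone gene induced by the receptor, was 5.74-, 4.97-, 6.11- and 5.50-fold higher in that order. Pdk4, which restrains glucose oxidation, was 3.61-, 4.20-, 3.47- and 3.65-fold higher. Mt2, a metallothionein, was 6.05-, 6.97-, 3.77- and 3.77-fold higher. Between high stretch hypercapnia and high stretch normocapnia 0 of the 13 passed, beside 5.56% of all genes. For high against low stretch normocapnia 6 rose, beside 8.72% of all genes, Mt2 among them (0.89 ± 0.16, limma adjusted p = 0.000162). In the same comparison 3 fell, beside 9.56% of all genes: Ddit4 (-0.57 ± 0.14) and, named after their values were seen, Zbtb16 (-0.40 ± 0.14) and Tsc22d3 (-0.31 ± 0.11).

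Of 11 measured cAMP and CREB responsive genes, 10 were higher in high stretch hypercapnia and 7 in high stretch normocapnia than in non-ventilated lungs, 0 lower, beside 16.3% and 17.4% of all genes higher. In each low stretch group 0 were higher, beside 7.99% of all genes with hypercapnia and 6.63% with normocapnia. Lower was 1, the phosphodiesterase gene Pde4b (by 0.57 ± 0.20 with hypercapnia and 0.59 ± 0.20 with normocapnia, limma adjusted p = 0.0492 and 0.0477), beside 7.02% and 5.17% of all genes lower. The largest rises in high stretch hypercapnia were those of Nr4a3 (1.54 ± 0.27), an orphan nuclear receptor gene, the immediate early gene Fos (1.44 ± 0.21) and Nr4a1 (1.25 ± 0.27). In high stretch normocapnia they were Fos (1.64 ± 0.21), Nr4a3 (1.56 ± 0.27) and Egr1 (1.47 ± 0.22). None of the 11 passed between high stretch hypercapnia and high stretch normocapnia, beside 5.56% of all genes. The part of either signal in the Per1 level was not tested.

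Over all 35 arrays the genes most like each member were ranked by Pearson's r. Per3 was closest to Tef (r = 0.94), Hlf (0.93) and Slc46a3 (0.90), and Dbp to Hlf (0.89), Tef (0.87) and Slc46a3 (0.86). Arntl was closest to Ahcyl2 (0.88), Igfbp3 (0.84) and Eln (0.80), and Clock to Ahcyl2 (0.84), Fnip2 (0.76) and Egfr (0.73). Per2 was closest to Cpeb1 (0.89), Wee1 (0.81) and Ankrd12 (0.81), Nr1d2 to Ankrd12 (0.86), Usp2 (0.77) and Tef (0.76), and Cry2 to Sec14l4 (0.84), Ciart (0.79) and Rap1gap (0.77). Nr1d1 was closest to Lpar3 (0.78), Itprid1 (0.78) and Unc79 (0.77), and its r with these fell to 0.43, 0.32 and 0.28 once group means were removed, while Per3 with Tef kept 0.93. Cry1 was closest to Trip10 (0.84), Timp3 (0.81) and Riok2 (0.79), and Per1 to Yod1 (0.77), Rhobtb1 (0.75) and Stk35 (0.73). These values are descriptions, with the group differences still in them.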

How the data were processed

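RNA from 35 mouse lungs was measured on Affymetrix whole-transcript arrays, with 1 array per numbered replicate. The deposited values are log2 signals per probe set. RMA, Affymetrix Expression Console and Partek are named in the submitters' processing notes, with no versions. Probe sets were named through the platform's gene table: of 35557, 21789 had 1 symbol, 1621 had several and 12147 were not listed. The probe set with the highest mean stood for each of 19938 genes. No filter on low signal was applied, and the number of arrays limits the precision. The labels number the replicates as biological, so each array was taken as 1 animal.

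Differences were tested by limma 3.58.1 (R version 4.3.3), fitting 1 mean per group over all 35 arrays with lmFit and then eBayes, and p-values were adjusted by Benjamini-Hochberg over all genes at 0.05. Correlations used 100000 two-sided permutations within groups (numpy 2.4.6). Both steps were tested on simulated data. All 10 members are reported. Of the further lists, up to 4 members with the largest change among those called are named, and for each member the 3 named genes with the highest r. The members and lists were chosen with earlier results of these data known. Same-numbered arrays of 2 groups were checked for pairing and not treated as paired. Alternatives were arrays left out in turn, the compared groups alone, a replicate block, array weights, trended and robust variance, only genes brighter than the median gene, all probe sets, mean of probe sets, median centring, quantile normalization, array SD as a covariate and, added later, Arntl as a covariate. Promoter sequences are from RefSeq (GRCm38.p6).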

Additional observations from a re-analysis of the deposited data

Results flagged for a closer look

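Among 50 combinations of a clock gene and a group, 1 held a lung far from the others. Cry1 in low stretch normocapnia replicate 1 was 8.59 log2 units, where the nearest of the other 4 lungs was 7.96, a gap of 0.883 of the group's whole range (the critical share for 5 arrays is 0.71). Chance alone gives such a lung in about 1 of 20 groups.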

How the results depend on the processing

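Of 981 changes of single genes in other settings, 939 kept their side of the threshold, 15 lost the call, 27 gained it and 0 reversed; 20 that were not called changed sign. With 1 array left out, 1359 of 1400 kept it, 28 lost and 13 gained the call, 0 reversed and 71 uncalled ones changed sign. The calls of Nr1d1 for high against low stretch normocapnia and of Cry2 for high stretch hypercapnia against high stretch normocapnia held in all 11 other settings; the Clock calls against non-ventilated lungs held in 6 of 11 in high stretch hypercapnia, 5 of 11 in high stretch normocapnia and 9 of 11 in low stretch hypercapnia.

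For low stretch normocapnia against non-ventilated lungs the count of clock genes called was 1 with array weights, 2 among genes brighter than the median, 1 after quantile normalization and 3 with Arntl as a covariate, in place of 0. For low stretch hypercapnia it was 1 with only the compared groups and 5 with Arntl as a covariate, in place of 3. For high against low stretch normocapnia it was 2 with only the compared groups, 2 with array weights, 2 among genes brighter than the median and 5 with Arntl as a covariate, in place of 1. For high stretch hypercapnia against normocapnia it was 2 with only the compared groups and 3 among genes brighter than the median, in place of 1. For high against low stretch hypercapnia it was 2 with Arntl as a covariate, in place of 0. The count of correlated pairs stayed at 36 or 37. The causes of these moves were not tested.

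With 1 array left out the counts ranged from 6 to 7 for high stretch hypercapnia, 4 to 5 for high stretch normocapnia, 1 to 3 for low stretch hypercapnia and 0 to 2 for low stretch normocapnia, each against non-ventilated lungs. They ranged from 1 to 2 for high against low stretch normocapnia, from 1 to 2 for high stretch hypercapnia against normocapnia, and from 0 to 0 for the other comparisons.

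Same-numbered arrays did not deviate together in every pair (for high against low stretch normocapnia, r of 0.04 to 0.26 over 5 pairs, 4 of them over 0.1 and 4 best with their own number, a hint from the data of shared deviation). The labels tie the numbers to no shared litter, day or batch, and in every comparison at least 1 pair was at or under 0.1, so the numbers were not used as pairs. With the replicate number as a block the counts were 6, 5, 3 and 0 against non-ventilated lungs in the order above, 1 for high against low stretch normocapnia, 1 for high stretch hypercapnia against normocapnia and 0 for the rest. The call of Cry2 in high stretch hypercapnia against non-ventilated lungs was lost under that block (0.29, adjusted p = 0.0529).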
